A study of Mus musculus with 60 samples.

Results

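The enzymes that write and erase acetyl and methyl groups on histones were followed in mouse dentate gyrus (DG) at its dorsal and ventral poles, after standard housing (SH) or an enriched environment (EE). Members were taken by name: every autosomal protein-coding gene whose symbol starts with Hdac, Sirt, Kat, Kdm, Kmt or Setd followed at once by a number, together with *Ep300*, *Crebbp*, *Ezh1*, *Ezh2*, *Suz12*, *Eed*, *Ehmt1* and *Ehmt2*. This gave 63 genes of the 46480 in the count tables. Another 10 genes matched the names but were pseudogenes, an antisense gene or X- or Y-linked (among them *Hdac6*, *Hdac8*, *Kdm5c* and *Kdm6a*) and were set aside. The mice were male C57BL6J animals that were put in their housing at weaning on day 22 and killed at 80 days of age. SH mice lived in small groups in a plain cage, and EE mice lived in a larger group in a bigger cage whose running wheels, bridge and objects were renewed each week. Each library holds total RNA of whole tissue punched from the DG and pooled over several mice, so it mixes granule cells, glia and other cells. The study took dorsal and ventral tissue from the same mice. Dorsal and ventral libraries of a replicate number are taken here as the same pool, which the sample titles do not state. Dorsal tissue was punched from coronal slices and ventral tissue from horizontal slices, so the pole and the plane of slicing cannot be told apart.

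Histone acetyltransferases (HATs) place acetyl groups on lysines of the histone tails, which loosens the packing of DNA, and histone deacetylases (HDACs) and the NAD-dependent sirtuins remove them. Lysine methyltransferases (KMTs) and demethylases (KDMs) set and remove methyl groups, and the meaning depends on the residue: H3K4 methylation marks active promoters and enhancers, H3K36 methylation marks transcribed gene bodies, and H3K27 and H3K9 methylation mark silenced chromatin. In the hippocampus *Hdac2* is known as a brake on memory formation and synaptic plasticity, *Crebbp* as a HAT that long-term memory needs, and *Kmt2a* and *Ezh2* as genes that adult neural stem cells of the DG use to form neurons. The name rule also takes in proteins known mainly for other substrates, such as *Setd3*, which methylates actin, and *Sirt3*, *Sirt4* and *Sirt5*, which work in mitochondria.

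The libraries held 22919364 to 28301861 fragments assigned to genes. SH replicate 3 was left out in both regions, since its libraries held 789 (dorsal) and 308 (ventral) counts of *Xist*, against at most 16 in any other library. This left 18 libraries from 9 pools of mice, 4 SH and 5 EE. Levels are given as CPM, the counts scaled to library size by the TMM method, or, between genes, as TPM, which also divides by transcript length. All 63 members passed the filter on low counts (a count above 10 in 2 or more libraries) with 17040 genes in all, and a member passed a test where the false discovery rate (FDR) of edgeR's quasi-likelihood test, adjusted by Benjamini and Hochberg over those 17040 genes, was under 0.05.

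Mean levels ran from 0.237 TPM for *Kdm4d* to 41.2 TPM for *Kat6b*, with a median of 5.55 TPM, and 58 of the 63 members lay above 1 TPM. *Setd3* (40.1 TPM), *Hdac11* (29.7 TPM), *Hdac5* (28.4 TPM) and *Ehmt2* (27.7 TPM) came next after *Kat6b*. The value of *Kat6b* is uncertain per length, since its deposited effective length of 1813 bases averages over transcripts of very different size.

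The 250 bases before the RefSeq transcription start (build GRCm38.p6) are shown for 6 members that passed the test between the poles described further on: *Sirt1*, *Hdac2* and *Kmt2a*, which were higher in dorsal DG, and *Sirt3*, *Hdac9* and *Hdac11*, which were higher in ventral DG. Sequences run 5′ to 3′ on the strand of the gene, and capitals mark CpG dinucleotides, the sites that carry most DNA methylation. RefSeq starts need not be those of Gencode, whose genes are used for the counts: the windows of *Sirt1*, *Hdac11*, *Kmt2a* and the second *Hdac9* start lie wholly or partly inside the Gencode gene.
Sirt1 (chr10:63339036-63339285, minus strand): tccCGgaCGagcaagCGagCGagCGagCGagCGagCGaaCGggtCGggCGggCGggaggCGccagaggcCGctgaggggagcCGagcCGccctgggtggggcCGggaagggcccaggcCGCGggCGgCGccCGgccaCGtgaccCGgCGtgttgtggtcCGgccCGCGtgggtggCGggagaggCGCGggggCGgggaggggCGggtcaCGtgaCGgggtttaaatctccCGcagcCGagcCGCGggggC
Hdac2 (chr10:36974294-36974543, plus strand): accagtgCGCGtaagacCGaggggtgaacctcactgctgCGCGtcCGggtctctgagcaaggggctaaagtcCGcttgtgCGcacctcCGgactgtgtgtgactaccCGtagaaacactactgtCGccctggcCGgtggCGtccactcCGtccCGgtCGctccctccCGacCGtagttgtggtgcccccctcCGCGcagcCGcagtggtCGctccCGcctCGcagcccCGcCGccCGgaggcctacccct
Kmt2a (chr9:44881290-44881539, minus strand): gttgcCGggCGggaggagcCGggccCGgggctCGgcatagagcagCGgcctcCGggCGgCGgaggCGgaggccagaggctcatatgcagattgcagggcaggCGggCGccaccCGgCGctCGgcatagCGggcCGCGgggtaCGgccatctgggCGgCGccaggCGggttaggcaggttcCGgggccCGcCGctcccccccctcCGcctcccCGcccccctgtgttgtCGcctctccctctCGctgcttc
Sirt3, first of 2 starts (chr7:140882310-140882559, minus strand): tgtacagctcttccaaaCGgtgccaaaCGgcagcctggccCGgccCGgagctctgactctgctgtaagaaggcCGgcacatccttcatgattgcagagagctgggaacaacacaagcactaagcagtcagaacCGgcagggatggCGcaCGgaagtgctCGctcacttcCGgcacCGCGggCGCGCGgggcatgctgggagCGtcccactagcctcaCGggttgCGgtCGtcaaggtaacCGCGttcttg
Hdac11 (chr6:91156565-91156814, plus strand): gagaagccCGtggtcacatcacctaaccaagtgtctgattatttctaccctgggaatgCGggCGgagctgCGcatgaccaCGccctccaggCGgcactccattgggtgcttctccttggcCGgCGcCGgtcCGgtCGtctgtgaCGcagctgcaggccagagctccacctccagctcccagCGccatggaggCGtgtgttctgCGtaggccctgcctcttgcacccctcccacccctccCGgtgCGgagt
Hdac9, first of 2 starts (chr12:34917096-34917345, minus strand): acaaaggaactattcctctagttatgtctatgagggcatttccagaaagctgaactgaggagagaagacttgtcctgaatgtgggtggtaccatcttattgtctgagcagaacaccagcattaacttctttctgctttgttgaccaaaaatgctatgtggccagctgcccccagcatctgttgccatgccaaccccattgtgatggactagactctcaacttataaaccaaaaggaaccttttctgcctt
Hdac9, second start (chr12:34528890-34529139, minus strand): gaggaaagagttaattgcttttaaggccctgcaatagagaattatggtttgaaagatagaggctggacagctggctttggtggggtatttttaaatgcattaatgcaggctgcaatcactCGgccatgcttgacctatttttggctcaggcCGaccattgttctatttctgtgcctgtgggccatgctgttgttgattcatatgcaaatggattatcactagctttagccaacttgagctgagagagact

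These windows held 39 CpGs for *Sirt1*, 27 for *Hdac2*, 29 for *Kmt2a*, 21 for *Sirt3* and 17 for *Hdac11*, while the *Hdac9* windows held 0 and 2. Promoters of 300 bases, 250 before and 50 after the start, were matched for 51 of the 63 members. Of these, 49 (96.1%) held 10 or more CpGs, against 81.9% of the promoters of 12072 tested genes that were matched, and the members' median was 28 CpGs against 21. *Setd5* (1 CpG) and *Hdac9* (3 CpGs in its richer promoter) held fewer than 10. In a search of both strands, the EGR motif GCGNGGGCG was found in 12 of the 51 members (23.5%) and in 12.1% of the tested genes. It shares letters with the GC box GGGCGG, found in 70.6% of the members and 66.2% of the tested genes, and both motifs hold a CpG. The AP-1 motif TGANTCA was found in 6 members (11.8%, against 6.2%), and the cAMP response element TGACGTCA in 0 of 51 (against 3.4%). A match describes letters in this window and is not a binding site, and no match says only that the letters are not there.

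The first comparison asked how the enzymes are set along the dorsal-ventral axis. Most of them were higher in dorsal DG. Over both housings, 39 members passed the test as higher in dorsal DG, where 29.0% of all 17040 genes did, and 9 passed as higher in ventral DG, where 29.3% did. In all, 48 of 63 members differed (76.2%, against 58.4% of all genes tested). The median log2 fold change (dorsal minus ventral) of the members was 0.18, and the median over all genes was -0.00463. Differences were small in size: 29 members also passed a 20% fold change (46.0%, against 32.7%), 25 of them dorsal (against 15.9%) and 4 ventral (against 16.8%), and the range ran from -0.45 for *Hdac11* to 0.70 for *Kdm6b*. In 23 members every dorsal library lay above every ventral one (36.5%, against 9.51% of all genes), and in 1, *Hdac11*, every ventral library lay above every dorsal one (1.59%, against 9.44%). Dorsal exceeded ventral in each of the 9 pools for 31 members (49.2%, against 20%) and ventral exceeded dorsal for 6 (9.52%, against 20.4%): *Ehmt2*, *Hdac4*, *Hdac9*, *Hdac11*, *Kat5* and *Sirt3*.

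SH and EE libraries come from different mice, so each housing gives the difference of the poles once, in 1 model that shares the estimate of spread. SH and EE libraries of a region with the same number were still correlated (0.11 to 0.28 in 8 of 8 pairs), so the housings may not be fully independent. In SH 34 members were higher in dorsal DG (54.0%, against 20.9% of all genes) and 6 in ventral DG (9.52%, against 20.8%). In EE 34 were dorsal (against 22.9% of all genes) and 7 ventral (11.1%, against 23.6%). Either way, 41.7% of all genes were called in SH and 46.5% in EE. The calls of both housings coincided for 38 members, which are 95% of the 40 called in SH and 92.7% of the 41 called in EE, with 32 dorsal (50.8%, against 17.6% of all genes) and 6 ventral (9.52%, against 17.6%). Fold changes had the same sign in 60 of 63 members, the exceptions being *Kat8*, *Setd6* and *Sirt7*, none of which passed the test in either housing.

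**Figure D1:**
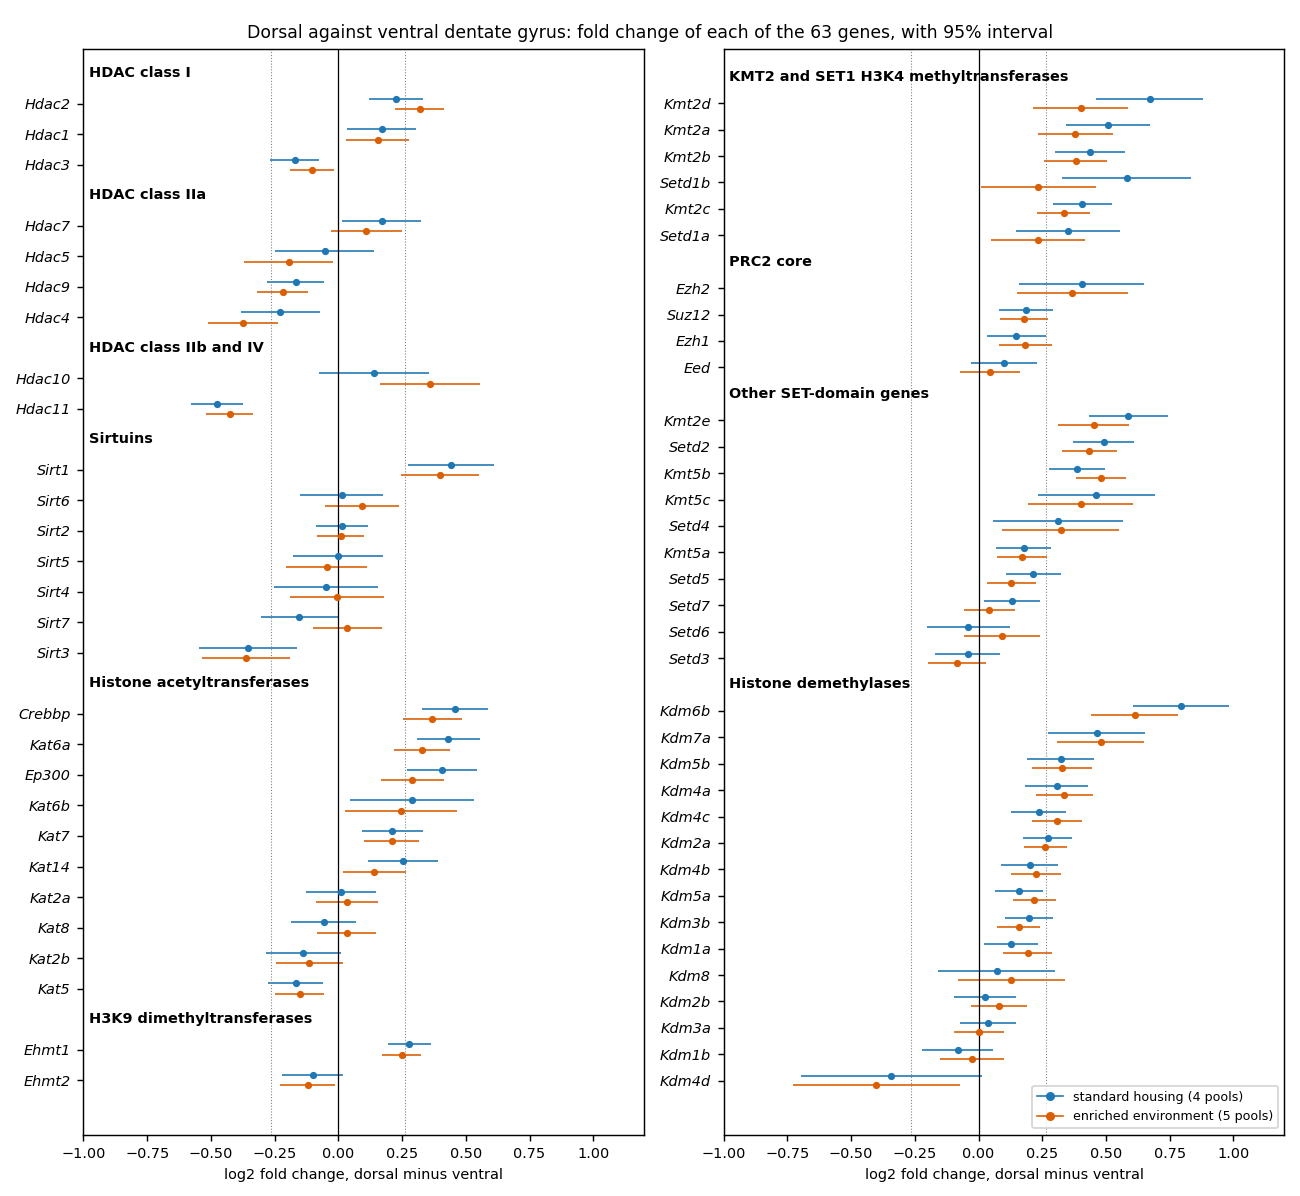
The horizontal axis gives the log2 fold change of dorsal minus ventral DG for each of the 63 genes, by family, with the 95% interval, in SH (blue, 4 pools) and EE (orange, 5 pools); dotted lines mark a 20% change. Most points lie to the right of 0, all 6 KMT2 and SET1 genes among them, while *Hdac11*, *Sirt3*, *Hdac4* and *Hdac9* lie to the left in both housings.

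The class I deacetylases, which work in large repressor complexes in the nucleus, were split. *Hdac2* (ENSMUSG00000019777.15; chr10:36974544-37001889, plus strand) was the most expressed of them at 20.2 TPM. Its CPM was 91.3, 88.4, 89.2 and 94.01 in dorsal SH, 90.7, 86.2, 93.02, 93.4 and 94.4 in dorsal EE, 77.02, 75.1, 81.6 and 76.9 in ventral SH and 69.3, 70.00, 69.8, 81.9 and 75.7 in ventral EE. The lowest dorsal library still lay above the highest ventral one, in both housings, and the log2 fold change, dorsal minus ventral, was 0.27 ± 0.035 SE, FDR = 6.4e-07. *Hdac1*, its close paralog, was also higher in dorsal DG (0.16 ± 0.044 SE, FDR = 0.0033) and was the least expressed at 5.60 TPM. *Hdac3*, the catalytic subunit of a nuclear corepressor complex, went the other way (-0.14 ± 0.031 SE, FDR = 0.00063), with ventral above dorsal in 8 of 9 pools.

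Class IIa deacetylases shuttle between nucleus and cytoplasm with neuronal activity and bind MEF2 factors, and 2 of the 4 were higher in ventral DG. *Hdac9* (ENSMUSG00000004698.9; chr12:34047580-34917095, minus strand) measured 34.03, 29.7, 34.8 and 31.6 CPM in dorsal SH and 35.1, 32.5, 32.4, 34.05 and 33.9 in dorsal EE, against 34.2, 37.9, 36.2 and 37.8 in ventral SH and 39.9, 36.5, 40.6, 39.7 and 38.8 in ventral EE. Ventral exceeded dorsal in all 9 pools, although the ranges overlapped slightly in SH, and the log2 fold change was -0.19 ± 0.036 SE, FDR = 9.0e-05. *Hdac4* (chr1:91928779-92195699, minus strand) held 84.2, 90.2, 88.7 and 83.5 CPM in dorsal SH, 94.6, 85.1, 88.5, 76.7 and 78.04 in dorsal EE, 97.5, 103.7, 99.00 and 106 in ventral SH and 114, 120.5, 116, 89.3 and 108 in ventral EE. Again ventral was higher in each pool, with overlapping ranges in EE (-0.30 ± 0.050 SE, FDR = 2.3e-05). *Hdac7*, at 1.60 TPM the least expressed of the class, was higher in dorsal DG (0.14 ± 0.050 SE, FDR = 0.021), and *Hdac5*, at 28.4 TPM the most expressed, did not pass the test (-0.12 ± 0.063 SE, FDR = 0.097), but passed as higher in ventral DG when pools entered as a block (-0.12, FDR = 0.0039).

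*Hdac11*, the only class IV deacetylase, showed the largest ventral difference of all 63 genes (chr6:91156665-91174692, plus strand). Dorsal libraries held 123, 139, 141 and 136 CPM in SH and 135, 150.3, 136, 135 and 144 in EE. Ventral libraries held 192, 185, 184 and 188 in SH and 193, 194, 181, 184 and 189 in EE. No libraries of the poles overlapped, counts taken without regard to strand gave -0.45 where a gene on the other strand overlaps *Hdac11*, and the log2 fold change was -0.45 ± 0.033 SE, FDR = 1.0e-10, a 1.37-fold difference. *Hdac10*, a class IIb enzyme known to act on polyamines, was low at 1.38 TPM and higher in dorsal DG (0.25 ± 0.070 SE, FDR = 0.0041).

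Among the 7 sirtuins only *Sirt1* and *Sirt3* passed the test, in opposite directions. *Sirt1* (ENSMUSG00000020063.15; chr10:63319005-63381704, minus strand), a nuclear deacetylase of histones and transcription factors, stood at 21.7, 20.1, 22.6 and 21.04 CPM in dorsal SH and 20.5, 17.1, 19.6, 23.2 and 20.1 in dorsal EE, and at 14.6, 16.8, 16.3 and 15.1 in ventral SH and 14.8, 13.00, 15.3, 16.2 and 16.9 in ventral EE. Dorsal lay above ventral with no overlap, by a narrow gap in EE (0.42 ± 0.055 SE, FDR = 9.6e-07). *Sirt3* (chr7:140863666-140882309, minus strand), the main deacetylase of mitochondrial proteins and the most expressed sirtuin at 23.1 TPM, held 54.00, 63.6, 58.7 and 53.2 CPM in dorsal SH, 54.9, 68.3, 57.5, 57.01 and 55.6 in dorsal EE, 83.3, 75.8, 68.7 and 65.2 in ventral SH and 81.5, 90.7, 69.1, 67.7 and 68.3 in ventral EE. Ventral was higher in all 9 pools, and the ranges overlapped because dorsal EE replicate 2 reached the level of the lower ventral libraries (-0.36 ± 0.063 SE, FDR = 4.1e-05). The cytoplasmic *Sirt2*, the mitochondrial *Sirt4* and *Sirt5* and the nuclear *Sirt6* and *Sirt7* did not pass, with log2 fold changes between -0.06 and 0.05, although *Sirt2* (FDR = 0.021) and *Sirt6* (FDR = 0.032) passed as dorsal once counts were adjusted for transcript length and GC content. *Sirt6* was the least expressed at 2.28 TPM.

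Of the 10 HATs, 6 were higher in dorsal DG and 2 in ventral DG. *Crebbp* (chr16:4081328-4213997, minus strand), the CREB-binding HAT and coactivator, held 146, 147, 140.0 and 143 CPM in dorsal SH, 150.1, 137, 154, 135 and 134 in dorsal EE, 94.9, 109, 108 and 108 in ventral SH and 112, 107, 116, 96.6 and 118 in ventral EE. Each dorsal library exceeded each ventral one (0.41 ± 0.042 SE, FDR = 2.2e-08), as it did for its paralog *Ep300* (0.35 ± 0.045 SE, FDR = 6.9e-07). *Kat6a* (chr8:22859535-22943259, plus strand), the MOZ acetyltransferase, gave 82.8, 82.3, 83.4 and 78.97 CPM in dorsal SH, 79.9, 72.96, 81.9, 73.3 and 72.8 in dorsal EE, 56.9, 67.7, 60.4 and 57.98 in ventral SH and 64.6, 59.2, 58.9, 55.6 and 64.9 in ventral EE, again without overlap (0.38 ± 0.040 SE, FDR = 3.9e-08). Its paralog *Kat6b* (0.27), *Kat7*, the HBO1 acetyltransferase (0.21) and *Kat14*, a subunit of the ATAC complex (0.20), also passed on the dorsal side. On the ventral side stood *Kat5*, the TIP60 acetyltransferase (-0.16 ± 0.035 SE, FDR = 0.00044), and *Kat2b*, known as PCAF (-0.13 ± 0.047 SE, FDR = 0.027), the least expressed HAT at 3.01 TPM. *Kat2a*, known as GCN5 (0.02), and *Kat8*, the MOF acetyltransferase of H4K16 (-0.01) did not pass.

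All 6 genes of the KMT2 and SET1 family, which methylate H3K4 within COMPASS complexes, were higher in dorsal DG, with a median log2 fold change of 0.41. *Kmt2a* (ENSMUSG00000002028.11; chr9:44803355-44881296, minus strand) held 108, 113, 113 and 117 CPM in dorsal SH, 108, 93.3, 113, 96.97 and 99.8 in dorsal EE, 67.3, 84.2, 83.5 and 82.6 in ventral SH and 75.1, 74.1, 80.9, 69.8 and 92.4 in ventral EE. The poles did not overlap, although the highest ventral and the lowest dorsal EE library came close (0.44 ± 0.053 SE, FDR = 2.6e-07). *Kmt2b* (chr7:30568858-30588726, minus strand) measured 37.04, 32.7, 32.7 and 36.5 CPM in dorsal SH, 33.96, 35.96, 36.02, 33.1 and 33.8 in dorsal EE, 24.4, 23.6, 26.3 and 28.2 in ventral SH and 25.9, 24.9, 26.96, 24.8 and 30.01 in ventral EE, with no overlap (0.41 ± 0.044 SE, FDR = 6.0e-08). *Kmt2d*, an enhancer H3K4 methyltransferase, had the largest fold change of the family (0.54 ± 0.068 SE, FDR = 6.4e-07) but was higher in dorsal DG in 8 of 9 pools. *Kmt2c*, its paralog and the most expressed of the family at 7.74 TPM, followed (0.37 ± 0.038 SE, FDR = 2.1e-08), with *Setd1b* (0.41), the least expressed at 0.656 TPM, and *Setd1a* (0.29).

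The Polycomb repressive complex PRC2 methylates H3K27, and 3 of its 4 core genes were higher in dorsal DG. *Ezh2* (chr6:47530139-47595341, minus strand), the catalytic subunit of dividing cells, held 17.2, 19.9, 16.8 and 16.2 CPM in dorsal SH, 19.04, 19.8, 18.1, 18.4 and 18.7 in dorsal EE, 15.3, 13.9, 12.97 and 10.7 in ventral SH and 14.99, 19.5, 14.2, 11.5 and 13.00 in ventral EE. It was higher in dorsal DG in all 9 pools, and the poles overlapped because ventral EE replicate 2 reached the dorsal level (0.39 ± 0.079 SE, FDR = 0.00023). *Suz12* (chr11:79993106-80034123, plus strand), a scaffold subunit, held 57.01, 52.4, 54.4 and 55.5 CPM in dorsal SH, 54.99, 48.1, 53.99, 54.5 and 52.9 in dorsal EE, 47.5, 50.5, 49.4 and 45.5 in ventral SH and 48.8, 43.7, 48.5, 47.1 and 45.8 in ventral EE. Ranges overlapped, with dorsal higher in each pool (0.18 ± 0.034 SE, FDR = 9.6e-05). *Ezh1*, the catalytic subunit of non-dividing cells and the most expressed at 10.5 TPM, had a log2 fold change of 0.17 (FDR = 0.00066), and *Eed*, the least expressed at 3.33 TPM, did not pass (0.07 ± 0.042 SE, FDR = 0.14).

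*Ehmt1* and *Ehmt2*, which pair to dimethylate H3K9, differed in direction. *Ehmt1* (chr2:24789928-24919614, minus strand) held 51.6, 53.1, 52.1 and 52.9 CPM in dorsal SH, 53.3, 48.4, 53.8, 50.4 and 50.98 in dorsal EE, 42.2, 43.2, 43.4 and 44.3 in ventral SH and 43.2, 43.97, 43.1, 42.7 and 43.1 in ventral EE, and dorsal lay above ventral throughout (0.26 ± 0.027 SE, FDR = 3.2e-08). *Ehmt2* (chr17:34898469-34914052, plus strand) held 180.5, 177, 171 and 170.5 CPM in dorsal SH, 191, 196, 185, 172 and 174 in dorsal EE, 189.8, 193, 182 and 185 in ventral SH and 204, 225, 197, 182 and 191 in ventral EE. Ventral was higher in all 9 pools by a small margin with wide overlap (-0.11 ± 0.039 SE, FDR = 0.019), and neither housing alone passed the test (FDR = 0.17 in SH and 0.061 in EE). *Ehmt2* was the more expressed of the pair, at 27.7 TPM against 6.23 TPM.

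The remaining SET-domain genes held 8 of 10 members higher in dorsal DG and 0 higher in ventral DG. *Kmt2e* (chr5:23434441-23504235, plus strand), a KMT2 relative known to bind H3K4-methylated histones, held 61.4, 58.2, 60.98 and 64.3 CPM in dorsal SH, 57.7, 56.3, 65.9, 55.3 and 56.1 in dorsal EE, 36.3, 41.1, 44.6 and 41.1 in ventral SH and 42.4, 38.99, 42.8, 38.4 and 50.2 in ventral EE. Poles were apart in every library (0.52 ± 0.050 SE, FDR = 9.9e-09). *Setd2* (chr9:110532597-110618633, plus strand), which trimethylates H3K36, held 131, 123, 132 and 133 CPM in dorsal SH, 125, 114, 130.3, 123 and 119.6 in dorsal EE, 83.1, 91.8, 96.4 and 97.9 in ventral SH and 89.7, 83.00, 87.97, 93.2 and 98.6 in ventral EE, also without overlap (0.46 ± 0.039 SE, FDR = 1.0e-09). The H4K20 methyltransferases *Kmt5b* (0.43), *Kmt5c* (0.43) and *Kmt5a* (0.17) passed on the same side, as did *Setd4* (0.32), the least expressed at 0.911 TPM, and *Setd5* (0.17). *Setd7* passed narrowly (0.09 ± 0.036 SE, FDR = 0.040), and with counts adjusted for transcript length and GC content its log2 fold change turned to -0.04 (FDR = 0.24). *Setd3*, the actin methyltransferase and the most expressed of these genes, did not pass (-0.06 ± 0.041 SE, FDR = 0.19), nor did *Setd6* (0.03).

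Demethylases followed the same direction, with 10 of 15 higher in dorsal DG and 1 in ventral DG. *Kdm6b* (ENSMUSG00000018476.7; chr11:69398508-69413675, minus strand), which removes H3K27 methylation, had the largest dorsal difference of all 63 genes while being among the least expressed (0.658 TPM). An antisense gene lies opposite *Kdm6b*, and the counts used keep the strand. Its CPM was 11.6, 10.2, 11.2 and 10.9 in dorsal SH, 11.2, 11.2, 11.6, 9.62 and 10.1 in dorsal EE, 5.47, 6.54, 6.93 and 6.39 in ventral SH and 7.42, 6.57, 6.39, 6.46 and 8.26 in ventral EE. Every dorsal library was above every ventral one, and the log2 fold change was 0.70 ± 0.061 SE, FDR = 1.9e-09, a 1.63-fold difference. *Kdm7a* (chr6:39136623-39206789, minus strand), a demethylase of H3K9 and H3K27, held 182, 158, 192 and 194 CPM in dorsal SH, 185, 145, 189, 184 and 182 in dorsal EE, 115, 125, 146 and 141 in ventral SH and 125, 107, 127.9, 134 and 142 in ventral EE. Dorsal was higher in all 9 pools, and dorsal EE replicate 2 fell within the ventral range (0.47 ± 0.062 SE, FDR = 9.6e-07). The H3K4 demethylases *Kdm5b* (0.33), *Kdm5a* (0.19) and *Kdm1a* (0.16), the last the most expressed demethylase at 16.2 TPM, passed on the dorsal side. So did the H3K9 and H3K36 demethylases *Kdm4a* (0.32), *Kdm4c* (0.27), *Kdm4b* (0.21), *Kdm2a* (0.27) and *Kdm3b* (0.18). *Kdm4d*, the least expressed member at 0.237 TPM, was higher in ventral DG (-0.37 ± 0.12 SE, FDR = 0.0090), and *Kdm1b*, *Kdm2b*, *Kdm3a* and *Kdm8* did not pass, with log2 fold changes from -0.05 to 0.10.

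**Figure D2:**
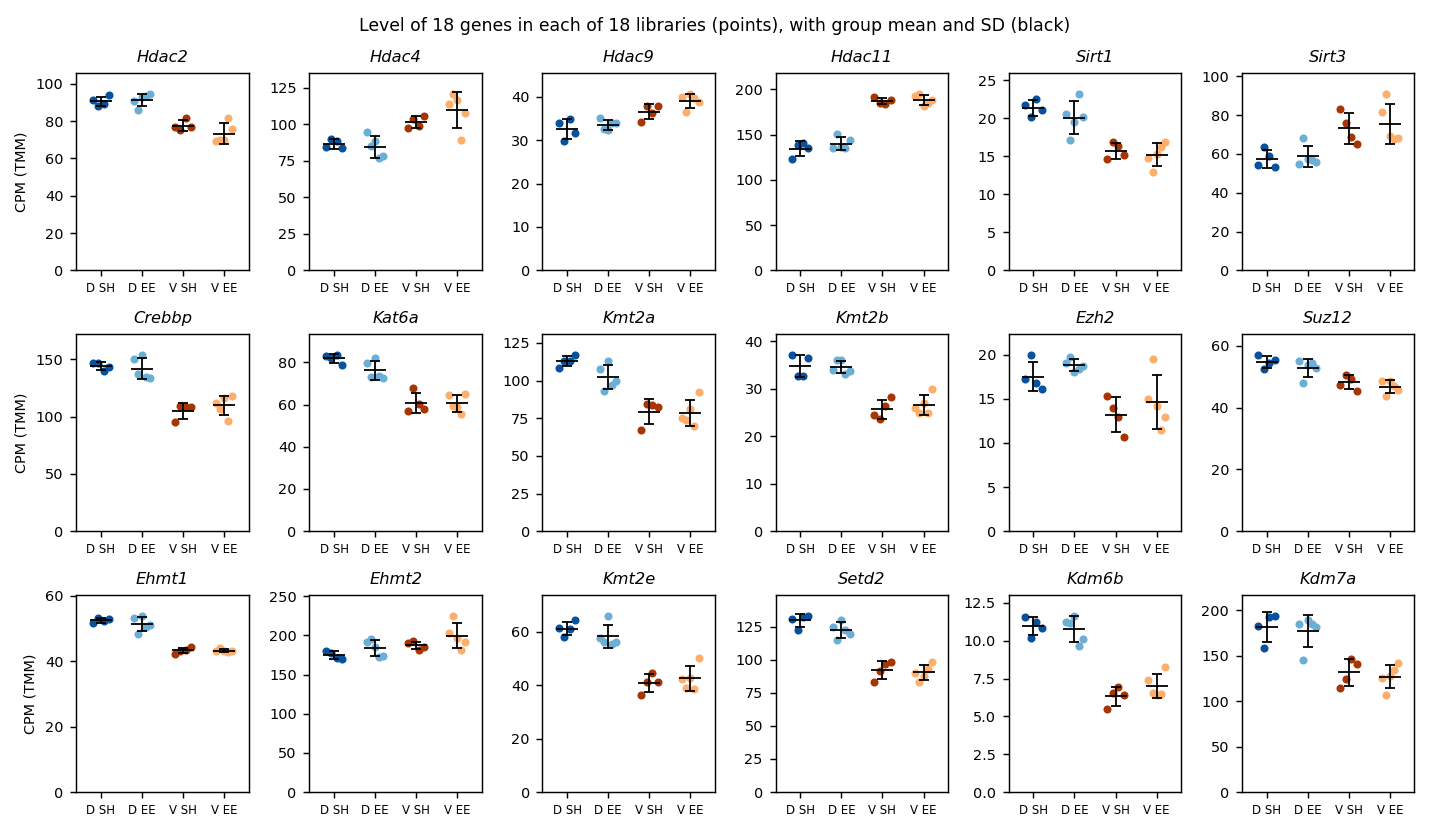
Each panel plots 1 gene, with CPM on the vertical axis from 0 and both housings of dorsal (D) and then ventral (V) DG along the horizontal axis; points are libraries and black marks are the group mean and SD. *Kdm6b* sits between 9.62 and 11.6 in dorsal and between 5.47 and 8.26 in ventral libraries, *Hdac11* is reversed, and the SH and EE libraries of a pole overlap in each of the 18 panels.

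Sorted by the residue they act on, writers and erasers of a mark were mostly higher at the same, dorsal pole. This is the direction of the members as a whole, 61.9% dorsal and 14.3% ventral, against 29.0% and 29.3% of all genes. With so few genes per mark, the counts say nothing further about single marks. For H3K4 methylation 6 of 6 writers of the KMT2 and SET1 family and 3 of 4 erasers were higher in dorsal DG and 0 were higher in ventral DG. For H3K27 methylation, 3 of 4 PRC2 genes and the eraser *Kdm6b* were dorsal. For H3K36 methylation the writer *Setd2* and 1 of 2 erasers (*Kdm2a*, not *Kdm2b*) were dorsal. H3K9 was mixed, with *Ehmt1* and 4 of 6 erasers dorsal, and *Ehmt2* and *Kdm4d* ventral. All 3 H4K20 methyltransferases were dorsal. *Kdm7a* (dorsal), which acts on both H3K9 and H3K27, was not sorted, and neither was *Setd7* (0.09). The genes that were sorted have 1 residue each, while several of these enzymes act on more than 1 residue.

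The difference of the poles moved with transcript length over all genes tested. The median log2 fold change over all genes was -0.10 for genes with an effective length under 500 bases and rose from -0.15 for those of 500 to 1000 bases to 0.20 for those over 8000 bases, and the members had a median effective length of 3218 bases against 2358. Across the 63 members, log2 fold change and log length had Pearson r = 0.48 and Spearman rho = 0.50, given as a description, since genes of the same libraries are not independent. Adjusting each library for length levelled the trend over all genes (medians between 0.01 and 0.03 in every length class), as it is fitted on these same genes to do. The median of the members then was 0.18, with 41 dorsal and 9 ventral calls (30.9% and 26.0% of all genes), and with GC content adjusted as well it was 0.17, with 42 dorsal and 9 ventral calls (31.2% and 26.4%). Calls and directions coincided with the unadjusted ones for 46 of 48 members, the exceptions being *Setd7* and *Kdm3b*, and with length alone adjusted *Kdm5a* also missed the threshold. In turn, with both adjusted 5 members that had not passed did so as higher in dorsal DG: *Setd6* (0.19), *Sirt6* (0.14), *Eed* (0.13), *Sirt2* (0.10) and *Kat8* (0.09, from -0.01 unadjusted). Sizes of single genes changed under the adjustment for both: *Kmt2a*, with 16120 bases the longest, went from 0.44 to 0.20, *Kmt2d* from 0.54 to 0.36, *Crebbp* from 0.41 to 0.23, and *Sirt3*, with 1212 bases, from -0.36 to -0.23. The adjusted values of *Kdm6b* (0.59), *Hdac11* (-0.44), *Sirt1* (0.41) and *Kmt2e* (0.49) lay within 0.12 of the unadjusted ones.

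**Figure D3:**
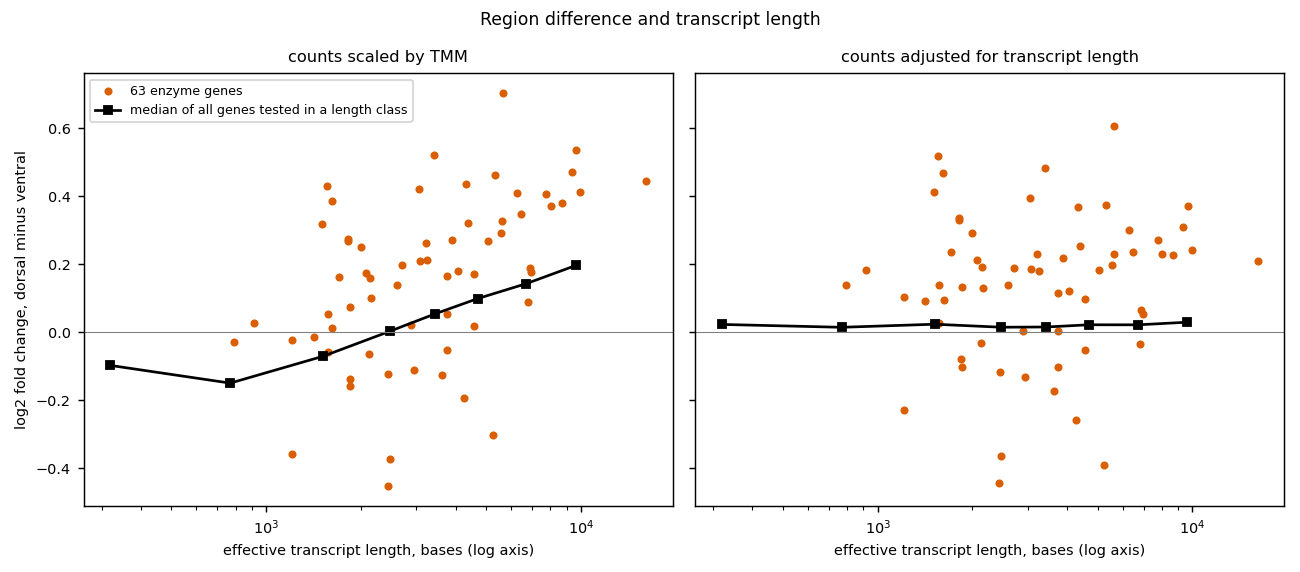
Effective transcript length in bases (log axis) is set against the log2 fold change of dorsal minus ventral DG, with counts scaled by TMM (left) and adjusted for length (right). Orange points are the 63 genes and black squares the median of all genes tested in each length class. On the left this median is -0.10 in the shortest class and climbs from -0.15 in the next to 0.20 in the longest. On the right it is flat, as the adjustment is fitted to make it, and most of the 63 points stay above it in both panels.

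Markers of cell types moved with the poles as well, where 29.0% of all genes passed as higher in dorsal DG and 29.3% as higher in ventral DG. The granule cell markers that define the DG, *Prox1* and *C1ql2* among them, were present in every library. Of 8 granule cell markers all 8 were higher in dorsal DG, with a median log2 fold change of 0.72, and their summed level was 1379 to 1635 CPM in dorsal and 755 to 1056 CPM in ventral libraries. Of 7 immature neuron markers 6 were dorsal and 1, *Tubb3* (-0.20), was ventral. *Tubb3* made up most of their summed level, which overlapped, with 283.7 to 317.5 CPM in dorsal and 268.3 to 317.2 CPM in ventral libraries. All 8 choroid plexus markers were higher in ventral DG (median -3.46), with sums of 25.5 to 214 CPM in dorsal and 395 to 1451 CPM in ventral libraries. Of 8 astrocyte markers 4 were ventral and 1 dorsal, with sums of 2984 to 3547 CPM in dorsal and 3422 to 4574 CPM in ventral libraries. Of 10 oligodendrocyte markers 4 were dorsal, 0 ventral and 6 not called, with overlapping sums of 2240 to 3168 CPM in dorsal and 1990 to 3386 CPM in ventral libraries. Markers of microglia (0 dorsal and 1 ventral of 8) and endothelium (1 and 0 of 8) were mostly not called. Those of pyramidal and mossy cells (4 and 4 of 10), interneurons (2 and 4 of 8) and habenula and thalamus (4 and 1 of 8) went both ways. Summed habenula and thalamus markers were 169.9 to 261.4 CPM in dorsal and 130.6 to 164.2 CPM in ventral libraries. Summed pyramidal and mossy cell markers were 428.3 to 478.4 CPM in dorsal and 491.4 to 551.9 CPM in ventral libraries. The largest dorsal and ventral log2 fold changes were those of *Iyd* (1.40) and *Calb2* (-2.42) for pyramidal and mossy cells. For interneurons they were those of *Npy* (0.28) and *Sst* (-0.93). For habenula and thalamus they were those of *Pou4f1* (3.58, at a mean of only 0.28 CPM in dorsal SH and 0.53 CPM in dorsal EE) and *Lhx9* (-0.41), and the better expressed *Prkcd* had 2.32. No marker of any list was at 0 in all libraries. In bulk tissue fewer cells of a type and less RNA per cell cannot be told apart, and the part of these differences in the levels of the 63 genes was not tested. With the library highest in choroid plexus markers at each pole left out (dorsal SH replicate 1 and ventral EE replicate 3), 38 dorsal and 8 ventral calls were made.

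The second comparison asked whether enrichment changed the enzymes. None of the 63 members passed the test in either region, where 122 of all genes tested (0.716%) did in dorsal DG and 42 (0.246%) in ventral DG. DESeq2 and limma voom also called 0 members in both regions, with 0 (dorsal) and 3 (ventral) at an unadjusted p under 0.05 in DESeq2. In dorsal DG 0 members had an unadjusted p under 0.05 (8.81% of all genes did), and the median log2 fold change (EE minus SH) of the members was -0.00888, with a range from -0.15 to 0.10. In ventral DG 5 members had an unadjusted p under 0.05 (7.94%, against 7.58% of all genes), and the median was -0.00141, with a range from -0.15 to 0.22. The 95% interval of the log2 fold change lay within a 20% change either way for 56 of 63 members in dorsal DG and for 51 in ventral DG. Intervals that reached past 20% belonged in both regions to the low or variable genes *Ezh2*, *Hdac10*, *Kat6b*, *Kdm4d*, *Kdm8* and *Setd1b*, and further to *Kmt2a* in dorsal DG and to *Hdac5*, *Kdm6b*, *Kmt2d*, *Kmt5c*, *Setd6* and *Sirt7* in ventral DG.

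Intervals of single genes bound the effect of housing. *Hdac2* had a log2 fold change of 0.01 (95% interval -0.09 to 0.11) in dorsal and -0.08 (95% interval -0.18 to 0.02) in ventral DG. *Hdac9* gave 0.05 (95% interval -0.06 to 0.15) and 0.10 (95% interval -0.01 to 0.20), and *Sirt1* gave -0.09 (95% interval -0.24 to 0.07) and -0.04 (95% interval -0.21 to 0.12). For *Kdm6b* the values were -0.03 (95% interval -0.20 to 0.14) in dorsal and 0.15 (95% interval -0.04 to 0.34) in ventral DG. The smallest unadjusted p values in dorsal DG were those of *Kmt2a* (log2 fold change -0.14, 95% interval -0.30 to 0.01, FDR = 0.61), *Kat6a* (-0.10, 95% interval -0.22 to 0.01, FDR = 0.64) and *Kat5* (0.09, 95% interval -0.01 to 0.19, FDR = 0.64). In ventral DG they were those of *Kmt2d* (0.22, 95% interval 0.02 to 0.42, FDR = 0.61), *Hdac3* (-0.10, 95% interval -0.19 to -0.01, FDR = 0.61) and *Hdac5* (0.20, 95% interval 0.01 to 0.38, FDR = 0.62). The *Kmt2d* level in ventral DG was 60.9, 72.1, 74.8 and 73.7 CPM in SH and 77.5, 77.6, 88.4, 65.7 and 100.4 CPM in EE, where EE replicate 5 stood highest. Without that replicate the log2 fold change was 0.14, and without SH replicate 1, the lowest, it was 0.16.

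**Figure D4:**
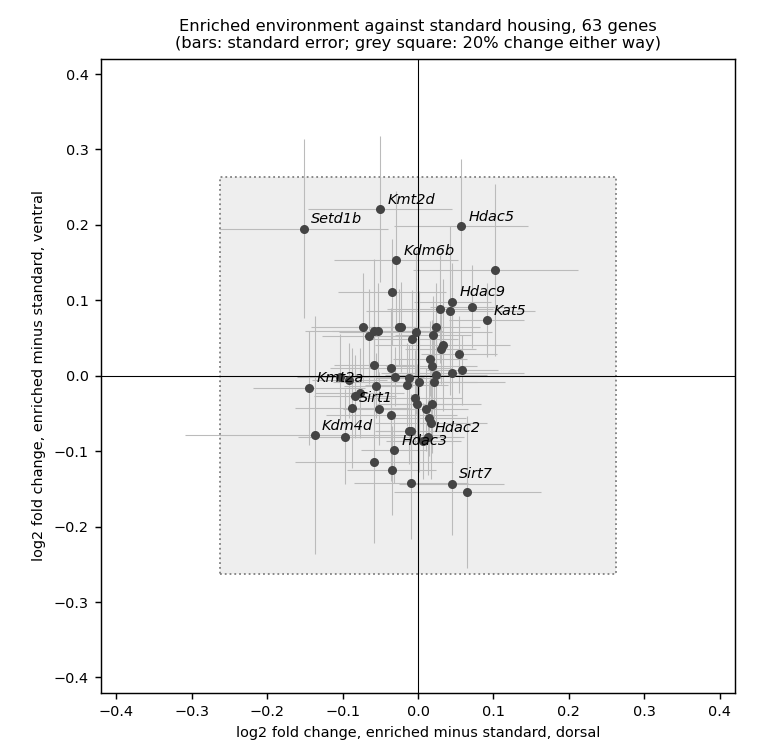
The log2 fold change of EE minus SH in dorsal DG (horizontal) is plotted against that in ventral DG (vertical) for the 63 genes, with bars for the standard error and a grey square for a 20% change either way. All 63 points lie inside the square, and *Kmt2d* has the largest ventral value at 0.22.

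An interaction term between pole and housing tested whether enrichment acted differently at the poles. No member passed (edgeR, 1 of 17040 genes, 0.00587%), 1 member had an unadjusted p under 0.05 (1.59%, against 3.25% of all genes), and DESeq2 and limma voom called 0 members. That member was *Setd1b* (-0.35, 95% interval -0.68 to -0.01, FDR = 1.0), whose dorsal-ventral log2 fold change was 0.58 in SH and 0.23 in EE. Its ventral EE libraries held 9.16, 9.10, 9.88, 9.29 and 14.00 CPM, and without EE replicate 5, the highest of them, the interaction was -0.17. *Kmt2d* (-0.27, 95% interval -0.55 to 0.01) and *Sirt7* (0.19, 95% interval -0.01 to 0.39) had the next smallest p values, and without EE replicate 5 the value of *Kmt2d* was -0.13. The interval lay within a 20% change for 36 of 63 members, and for the other 27 it reached past it.

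Genes of the same pathways outside the name rule were also more often higher in dorsal DG. In 7 lists of complex partners, other histone enzymes and readers of the marks, with 161 genes tested that are not members, 87 (54.0%) were higher in dorsal DG and 22 (13.7%) in ventral DG, against 29.0% and 29.3% of all genes, and the median log2 fold change was 0.13. Partners of HDACs were 16 of 31 dorsal and 8 ventral, and 16 and 5 with length and GC content adjusted. Among them the corepressor *Rcor2* (0.77 ± 0.056) was dorsal, and *Sap30* (-0.55 ± 0.061), a subunit of the Sin3 complex, and the remodeler *Chd5* (-0.43 ± 0.045) were ventral, all values being log2 fold change ± SE. Partners of HATs were 21 of 39 dorsal and 1 ventral, led by *Brpf1* (0.58 ± 0.045), the scaffold of the KAT6 complex, and *Ncoa1* (0.39 ± 0.044), with *Meaf6* (-0.09 ± 0.030) on the ventral side. Partners of the H3K4 methyltransferases were 6 of 11 dorsal, *Ncoa6* (0.33 ± 0.050) and the core subunit *Rbbp5* (0.33 ± 0.053) first, and the core subunit *Dpy30* (-0.30 ± 0.040) was the 1 ventral gene.

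PRC2 accessory and PRC1 genes were 15 of 25 dorsal and 2 ventral. Of all genes tested 29.0% were dorsal and 29.3% ventral, the shares to set beside this and the next lists. *Pcgf6* (0.46 ± 0.071) and *Jarid2* (0.45 ± 0.033), which guides PRC2 to its targets, were highest in dorsal DG, and *Phf1* (-0.30 ± 0.040) and *Epop* (-0.22 ± 0.068) were ventral. Other histone methyltransferases were 11 of 25 dorsal and 7 ventral, a ventral share near that of all genes, and their median log2 fold change was only 0.03. Among them the H3K79 methyltransferase *Dot1l* (0.68 ± 0.057) and the H3K36 methyltransferase *Nsd1* (0.41 ± 0.030) were dorsal and *Prmt2* (-0.40 ± 0.031) and *Prdm16* (-0.31 ± 0.049) ventral. Of 6 other demethylase genes 3 were dorsal, *Hr* (1.08 ± 0.060) and *Jmjd1c* (0.55 ± 0.037) leading, and 1 ventral, *Riox2* (-0.27 ± 0.066). Readers of acetyl and methyl marks were 15 of 24 dorsal, with *Baz1b* (0.43 ± 0.039) and *Cecr2* (0.40 ± 0.046) first, and 2 ventral, *Brd2* (-0.10 ± 0.036) and *Brd9* (-0.10 ± 0.040). Enrichment changed 0 of the 161 genes past the test in dorsal or ventral DG by edgeR. At an unadjusted p under 0.05 in edgeR's test stood 10 of them in dorsal and 14 in ventral DG, where 8.81% and 7.58% of all genes did. DESeq2 and the fit with a replicate block each called 1, *Hr*, as higher in dorsal EE (log2 fold change 0.30 in both), and limma voom called 0.

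**Figure D5:**
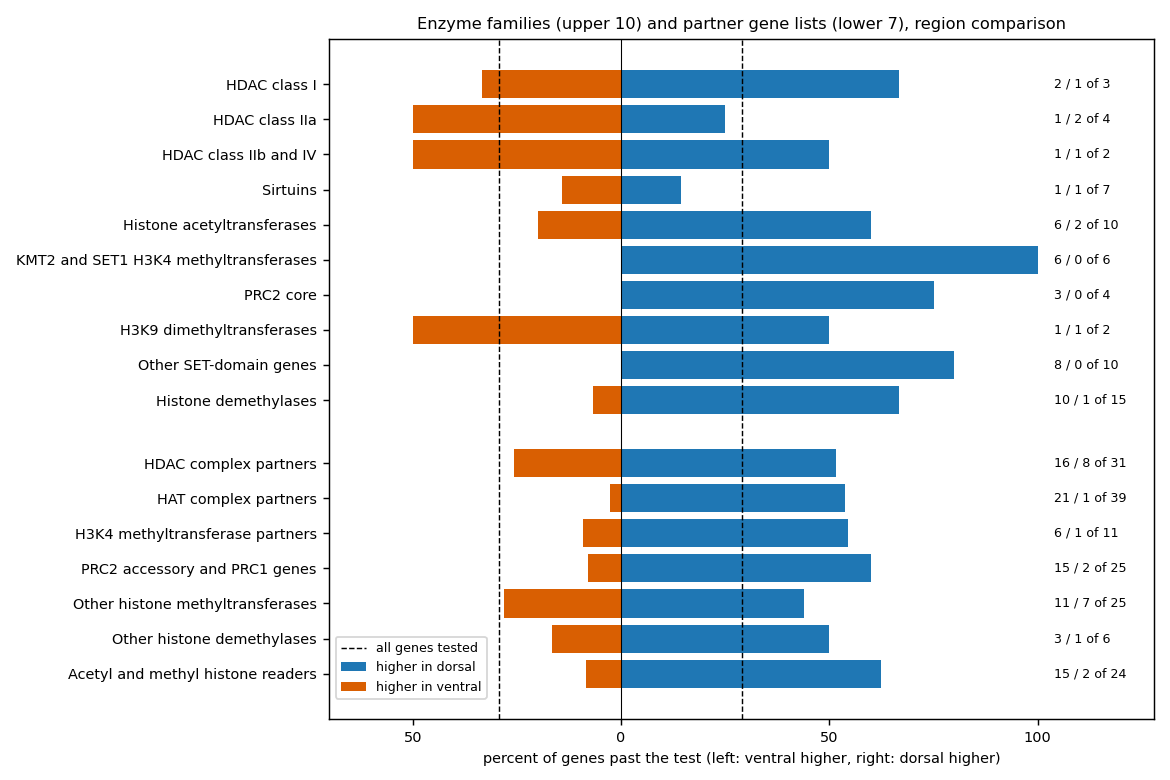
Bars give the percent of tested genes in each list that passed the test as higher in dorsal (blue, to the right) or ventral (orange, to the left) DG, with counts beside them, for 10 enzyme families and 7 partner lists; dashed lines give the percent over all genes tested, 29.0% and 29.3%. The KMT2 and SET1 bar reaches 100% dorsal, and the class IIa HDAC bar is longer on the ventral side.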

How the data were processed

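Total RNA of 20 libraries (5 per region and housing) was sequenced as stranded paired-end reads. The authors trimmed reads with Trim Galore 0.4.0, aligned them to mm10 with STAR 2.5.1b under Gencode vM7, and deposited a STAR count of fragments per gene, whose column for the library's strand was used as raw counts. A second deposited table held expected counts and TPM, which the authors estimated with RSEM 1.2.30. The expected counts were rounded and used only as an alternative, and TPM only to compare levels between genes. Mean TPM, not scaled by TMM, did not follow every small ventral difference: *Hdac3* had 16.2 (SD 3.22) in dorsal and 15.5 (SD 2.41) in ventral SH. Means of *Hdac4*, *Hdac9*, *Ehmt2* and *Kat5* were also higher in dorsal SH, but not in dorsal EE. Expected counts scaled by TMM kept these genes as higher in ventral DG. Fragments that overlapped no gene were 10.25 to 13.51% of a library, and those that mapped to several places 10.08 to 17.42%. All fragments not assigned to a gene stayed out of the totals. They made up 32.6% (dorsal SH replicate 1) to 40.9% (ventral EE replicate 2) of a library. Coordinates are Gencode on GRCm38, and promoter sequences are RefSeq on GRCm38.p6, matched by symbol for 51 of 63 members. The 12 members without a promoter entry were *Hdac1*, *Hdac3*, *Hdac10*, *Kat6a*, *Kdm2a*, *Kdm3b*, *Kdm4b*, *Kdm5a*, *Kdm6b*, *Kmt2b*, *Kmt2e* and *Setd1b*. DNA methylation samples of the same tissue were not analysed here.

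Counts of 18 libraries were fitted with 4 group means and TMM in edgeR 4.0.16 (R 4.3.3, quasi-likelihood test), and 6 contrasts were tested with Benjamini-Hochberg adjustment over 17040 genes, as 2-sided tests. Intervals are 95%. The study left out 1 SH sample for its *Xist* level, taken here as SH replicate 3, and a fit with it was also made. Within-group library pairs differed by more than sampling noise (chi-square per degree of freedom 2.95 to 39.5), so none was counted as a duplicate. The value of 1 gene of the partner lists is not reported here. The members and lists were chosen with earlier results of these data known, and *Kat14*, a member by the rule, was placed in the HAT list once the files showed it. Genes shown library by library were the 5 markers *Hdac2*, *Hdac9*, *Kdm6b*, *Kmt2a* and *Sirt1* and, per family, the 2 called members with the largest difference of the poles in one direction in all 9 pools, and further genes were named by the smallest p, the highest and lowest TPM or the account of every member. The fit was also run on simulated independent libraries, without correlation between libraries and without a length trend. That run cannot show how these affect the tests.

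Within a housing, dorsal and ventral libraries of a number were taken to share their mice. The study drew both poles from the same mice, but the titles do not say that equal numbers are the same pool. Deviations of these pairs from the group means had a mean correlation of 0.13 (-0.13 to 0.31, 9 pools). EE and SH libraries of a number correlated in 8 of 8 pairs (0.11 to 0.28), a pairing that comes from the data alone. Alternatives were a replicate block, all 20 libraries, each pool left out, DESeq2 1.42.0, the edgeR likelihood ratio test, limma voom (3.58.1), RLE size factors, 2 other filters, unstranded and expected counts, robust dispersion, a test of both housings together and separate fits of each region. Adjustment for transcript length and GC content by splines with 5 degrees of freedom, also with the block, and leaving out the 2 libraries high in choroid plexus markers were added after seeing the data.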

Additional observations from a re-analysis of the deposited data

Results flagged for a closer look

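In 80 groups of 4 or 5 libraries (18 genes and the sums of the granule cell and choroid plexus markers), 6 held a library far from the others by Dixon's criterion, where chance gives about 1 in 20. *Sirt3* stood at 68.32 CPM in dorsal EE replicate 2, against 54.92 to 57.53 in the other dorsal EE libraries. In the same library *Kdm7a* was low, at 145.2 CPM against 181.5 to 189.2. *Crebbp* (94.89 CPM against 108.0 to 109.0) and *Kmt2a* (67.31 CPM against 82.64 to 84.16) were both low in ventral SH replicate 1, and *Kmt2e* was high in dorsal EE replicate 3 (65.9 CPM against 55.29 to 57.68). The summed choroid plexus markers reached 213.6 CPM in dorsal SH replicate 1, against 26.88 to 52.02 in the other dorsal SH libraries.

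SH replicate 3, left out of the reported comparisons and used only in the fit of all 20 libraries, held 789 counts of *Xist* in its dorsal and 308 in its ventral library, while no other library held more than 16. *Xist* is the RNA that silences an X chromosome in female cells, and the labels give every sample as male.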

How the results depend on the processing

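Over 25 alternatives the members called between the poles numbered 44 to 53 (48 as reported), 37 to 43 of them dorsal and 7 to 10 ventral, and 46 to 48 with 1 pool left out. Of the 48 calls 42 were made under each alternative that tested the gene (*Setd1b* and *Kdm4d* were not tested with the TPM filter). *Setd7* missed the threshold in 14 of 25, *Hdac7* and *Kat2b* in 5, *Kdm3b* in 3, and *Kdm5a* and *Ehmt2* in 1, *Ehmt2* with an FDR of 0.054 in the test of both housings together, and of the called members only *Setd7* changed sign. Of the 15 uncalled members 7 gained a call under some alternative: *Hdac5*, *Sirt2*, *Sirt6*, *Eed*, *Kat8* and *Setd6* in 3 each and *Sirt4* in 1. In SH the calls numbered 30 to 44, and with 1 pool left out the ventral calls ran from 3 to 6, the 3 without SH replicate 1. In EE they numbered 35 to 44. With the replicate block, which is the pool for the poles and the interaction and the replicate number for enrichment, 49 members were called between the poles (39 dorsal, 10 ventral, the gain being *Hdac5*), 44 in SH and 44 in EE, and it changed no call of the enrichment comparisons or the interaction, which were 0 under every alternative. Over all genes the enrichment calls depended more on the fit: in dorsal DG 122 as reported, 73 without the 2 libraries high in choroid plexus markers, 74 to 130 with 1 pool left out (74 to 80 without any 1 of the SH pools), 188 with DESeq2, 225 with the likelihood ratio test and 243 with the block (265 with length and GC adjusted as well). In ventral DG these were 42, 32, 18 to 50, 85, 95, 105 and 147, with 80 without a filter, 27 with the TPM filter and 25 in a separate fit. The 18 came without SH replicate 4, and SH replicate 2 (24) and EE replicate 3 (26) also moved the ventral count by over 1.5 times. The causes were not tested. The TPM filter left 61 members to test. Depth limits the low genes most: *Kdm4d* had at least 20 counts per library.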
